A study of Mus musculus with 6 samples.

Results

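The 10 genes described here encode transcription factors of the uterine stroma, the connective tissue under the epithelium. They were chosen by name: the basic helix-loop-helix factors Hand2 and Tcf21, the nuclear receptor gene Nr2f2, the posterior Hox genes Hoxa9, Hoxa10, Hoxa11, Hoxd9, Hoxd10 and Hoxd11, and the leucine zipper factor Cebpb. All 10 were found among the 56748 genes of the tables and all 10 had enough counts to be tested, so no member was lost to the filter on low counts. The 3 Zip10 cKO libraries came from uterus of mice labelled Zip10 conditional knockout (Zip10 cKO, a deletion of the zinc importer gene Slc39a10 in the uterus), and the 3 control libraries from uterus of mice labelled WT. Both groups were taken on day 4 of pregnancy at 1600 h, and no other treatment or allele is named. The labels name neither the promoter behind the deletion, the exons removed, the age of the mice nor whether each library was 1 animal, so the p-values rest on the spread among these libraries alone, which may be technical. The series calls the tissue endometrium and the samples uterus, and smooth muscle genes were abundant in both groups.

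In the mouse, stromal cells of the uterus answer progesterone and signals from the epithelium before an embryo attaches. The hedgehog ligand of the epithelium acts on the stroma, where Nr2f2 is part of the answer, and Hand2 is induced by progesterone and holds down fibroblast growth factors that drive epithelial growth. Posterior Hox genes give the female reproductive tract its regions along its length, with Hoxa9 known for the oviduct and Hoxa10 and Hoxa11 for the uterus, and Hoxa10 and Hoxa11 remain in adult stroma, where mice that lack either gene are subfertile or infertile. Cebpb is needed in mice for stromal cells to become decidua, the tissue that surrounds the embryo.

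The libraries held 19643069 to 22328338 counts in the Zip10 cKO group and 20176537 to 22809574 in the control group, and each member had 436 to 7329 counts per library. The targeted gene, Slc39a10, was at 39.5, 72.5 and 79.8 CPM (counts relative to library size, TMM-scaled) in Zip10 cKO libraries 1, 2 and 3, and at 54.6, 70.4 and 66.2 CPM in control libraries 1, 2 and 3. The fold between the groups was 1.00 (95% interval 0.678 to 1.49), so the gene total, with the deleted exons not named, does not check the genotype labels and every direction below is that of libraries labelled Zip10 cKO. Zip10 cKO library 1 stood apart from the other 5 on the first axis of a multidimensional scaling plot, at -1.58 against -0.02 to 0.77, and mitochondrial genes took 3.43% of its counts against 4.50% to 4.84% in the others. The main counts are also given without it.

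Levels of the stromal factors were slightly lower in the Zip10 cKO libraries for 9 of the 10 genes, and none of these differences passed the test. The exception was Cebpb. The median log2 fold change of the 10 genes was -0.26, beside 0.00 over the 16737 genes tested, and 50.6% of those genes lay below 0 and 49.4% above. None of the 10 had an adjusted p under 0.05 in edgeR's quasi-likelihood test with Benjamini-Hochberg adjustment, where 0.0% of all genes did. Their adjusted p ran from 0.747 to 0.787, and the smallest over all genes was 0.626. The same test put 1 member, Hand2, at an unadjusted p under 0.05, and 6.46% of all genes, 1.98% lower and 4.48% higher in Zip10 cKO. After adjustment limma-voom, edgeR's likelihood ratio test and DESeq2 also called 0 of the 10, and before it they put 1, 1 and 2 members under 0.05. Of 16737 genes, limma-voom put 369 lower and 705 higher at that unadjusted p, and the likelihood ratio test 320 lower and 780 higher. DESeq2 put 398 lower and 803 higher of 28980 genes. For 2 members, Hand2 and Hoxa11, the Zip10 cKO libraries were all below the controls, as they were for 5.78% of all genes tested.

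**Figure D1:**
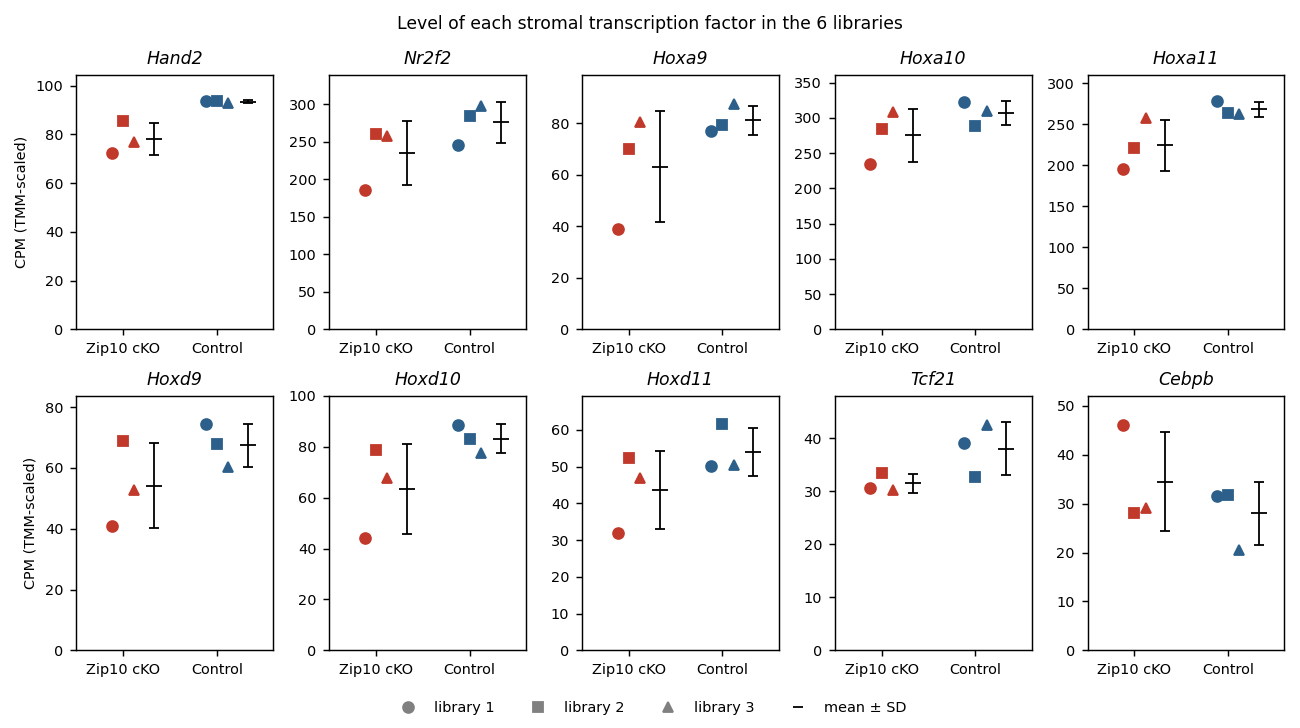
Level of each of the 10 genes in CPM (vertical axes, from 0) in the 3 Zip10 cKO libraries (red, left) and the 3 control libraries (blue, right), with the group mean and SD in black. Zip10 cKO library 1 (circle) is the lowest of the 6 for 8 genes and the highest for Cebpb, and the groups are apart only for Hand2 and Hoxa11.

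The library that stood apart also held the lowest levels. Zip10 cKO library 1 was the lowest of the 6 for 8 of the 10 genes, where it was the lowest for 24.6% of all genes tested. In it the 9 genes other than Cebpb lay between 0.17 and 0.83 below their own 6-library mean on the log2 scale (deviations of -0.17 to -0.83), with a median of -0.44. The median deviation of the same 9 genes was 0.00 in Zip10 cKO library 2 and -0.03 in library 3, and 0.15, 0.17 and 0.12 in control libraries 1, 2 and 3. Without Zip10 cKO library 1 the median log2 fold change of the 10 genes was -0.14, again with 9 genes below 0, and no member had an unadjusted p under 0.05, where 1.59% of all genes did and were lower. Without Zip10 cKO library 2 the median was -0.33 and 4 members did, all lower, beside 3.31% of all genes. Without library 3 of that group it was -0.30 and 2 did, both lower, beside 2.91% of all genes.

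The 250 bases before the start in RefSeq (build GRCm38.p6, whereas the counts were made on GRCm39) were matched by symbol for all 10 genes, which have 12 such windows, since Hoxa10 and Hoxd11 have 2 starts each. The windows of 4 genes are printed 5′ to 3′ on the gene's strand: Hand2 (chr8:57320733-57320982, plus strand) and Hoxa11 (chr6:52245811-52246060, minus strand), whose groups did not overlap; Hoxa10 (chr6:52240855-52241104, minus strand, the start farthest upstream), the most abundant member; and Cebpb (chr2:167688665-167688914, plus strand), which lay in the other direction. Capitals mark CCAAT boxes (CCAAT), GC boxes (GGGCGG) and the short element that steroid receptors such as the progesterone receptor recognise (AGAACA), on either strand, and overlapping matches form 1 run.
Hand2: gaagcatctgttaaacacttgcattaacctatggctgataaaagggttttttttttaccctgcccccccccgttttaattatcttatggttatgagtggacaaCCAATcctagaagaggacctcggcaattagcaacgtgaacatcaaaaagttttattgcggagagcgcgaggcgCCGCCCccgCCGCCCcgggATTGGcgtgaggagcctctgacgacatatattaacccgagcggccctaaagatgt
Hoxa11: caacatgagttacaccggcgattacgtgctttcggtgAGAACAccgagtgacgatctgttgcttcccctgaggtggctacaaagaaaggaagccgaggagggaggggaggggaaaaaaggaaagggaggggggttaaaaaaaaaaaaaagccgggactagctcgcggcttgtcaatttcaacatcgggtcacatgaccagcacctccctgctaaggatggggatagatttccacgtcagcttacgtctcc
Hoxa10: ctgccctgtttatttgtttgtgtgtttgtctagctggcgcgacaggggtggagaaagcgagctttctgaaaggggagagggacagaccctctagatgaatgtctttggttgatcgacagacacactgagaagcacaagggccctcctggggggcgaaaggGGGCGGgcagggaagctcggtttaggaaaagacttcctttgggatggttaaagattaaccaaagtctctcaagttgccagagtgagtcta
Cebpb: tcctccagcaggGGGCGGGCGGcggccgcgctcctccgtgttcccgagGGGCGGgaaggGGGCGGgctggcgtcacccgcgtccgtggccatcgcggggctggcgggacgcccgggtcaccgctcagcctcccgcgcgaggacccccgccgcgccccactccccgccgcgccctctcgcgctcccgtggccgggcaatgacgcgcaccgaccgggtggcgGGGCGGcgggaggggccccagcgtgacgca
Hand2 has 2 CCAAT and 2 GGGCGG matches, Hoxa11 a single AGAACA match 213 bases before its start, and Hoxa10 a single GGGCGG match in the printed window. The other Hoxa10 window has a CCAAT match 64 bases and a TATAAA match 160 bases before its start, and no GGGCGG match. Cebpb has 5 GGGCGG matches in a window that is 81.6% G and C, the highest of the 12. Over the 12 windows CCAAT was found in 4, GGGCGG in 6, AGAACA in 2 and TATAAA in 1, and in all 32851 windows of the table in 33.8%, 32.7%, 16.1% and 12.4%. These matches describe letters only and say nothing of binding.

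Hand2, the progesterone-induced factor that restrains epithelial growth, had the smallest spread of the 10 genes in controls. It was at 72.4, 85.4 and 76.8 CPM in Zip10 cKO libraries 1, 2 and 3, and at 93.7, 93.8 and 92.8 CPM in control libraries 1, 2 and 3. Every Zip10 cKO library lay below every control. The means were 78.2 ± 6.59 CPM in Zip10 cKO and 93.4 ± 0.56 CPM in control libraries (SD, n = 3 each), a fold of 0.837 with a 95% interval from 0.722 to 0.971. The log2 fold change was -0.26 ± 0.09 (SE), with an edgeR p of 0.0244 that became 0.747 after adjustment over all genes. An exact two-sided permutation test of its log2 CPM gave p = 0.1, the smallest that 3 against 3 allows. The log2 fold change of Hand2 was -0.21 without Zip10 cKO library 1. In bulk tissue, a different share of the cells that express a gene and a different amount of its RNA per cell cannot be told apart. This holds for Hand2 and for all genes that follow. Exons of Hand2 overlap those of its antisense partner Hand2os1, and without a stated strand setting the counts of the 2 genes may be mixed. Both had counts split between genes in all 6 libraries. Hand2os1 itself was at 60.4, 60.9 and 95.4 CPM in Zip10 cKO libraries and 68.8, 81.5 and 81.2 CPM in controls, a log2 fold change of -0.10 ± 0.18 (SE), and its groups overlapped.

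Tcf21, a basic helix-loop-helix factor of embryonic mesenchyme in kidney, lung and heart, was at 30.6, 33.5 and 30.3 CPM in Zip10 cKO libraries 1, 2 and 3, and at 39.1, 32.6 and 42.4 CPM in control libraries 1, 2 and 3. It was the only member below 0 whose lowest library was not Zip10 cKO library 1, and its Zip10 cKO libraries were close together. Control library 2 lay between them, so the groups overlapped. The log2 fold change was -0.27 ± 0.12 (SE; edgeR adjusted p = 0.747), a fold of 0.828 with an interval from 0.681 to 1.01, and it was -0.25 without Zip10 cKO library 1. The partners and relatives of Hand2 and Tcf21 in the same protein class, 9 of 10 tested, were centred on -0.04 (median log2 fold change), with 4 above and 5 below 0 and none at an unadjusted p under 0.05. The member of that list with the smallest p, Twist1, a mesenchymal factor, stood at 0.23 ± 0.18 (SE). The ubiquitous dimer partner Tcf12 stood at 0.10 ± 0.10.

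Nr2f2, the nuclear receptor COUP-TFII that stands between epithelial hedgehog and stromal differentiation, was at 186, 261 and 258 CPM in Zip10 cKO libraries 1, 2 and 3, and at 246, 285 and 298 CPM in control libraries 1, 2 and 3. Zip10 cKO libraries 2 and 3 lay above control library 1. The fold was 0.851 with an interval from 0.670 to 1.08, and the log2 fold change -0.23 ± 0.15 (SE; edgeR adjusted p = 0.762). It was -0.09 without Zip10 cKO library 1. The difference between Hand2 and Nr2f2 within a library, on the log2 CPM scale, averaged -1.57 ± 0.20 in Zip10 cKO and -1.56 ± 0.15 in control libraries (SD, n = 3 each). A two-sided exact permutation test of it gave p = 0.9. Exons of Nr2f2 overlap those of the opposite-strand gene B130024G19Rik, so its count carries the same uncertainty as that of Hand2.

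Hoxa10 and Hoxa11 were the most abundant members per length. In TPM (transcript abundance scaled per length), Hoxa10 averaged 235 ± 27.6 in Zip10 cKO and 246 ± 8.82 in control libraries, and Hoxa11 averaged 142 ± 19.3 in Zip10 cKO and 162 ± 2.55 in control libraries (SD, n = 3 each). Nr2f2 came next in both groups, at 134 ± 21.1 TPM in Zip10 cKO and 153 ± 21.9 TPM in control libraries, and its range overlapped that of Hoxa11 in both. Hoxd10 followed at 51.5 ± 13.0 TPM in Zip10 cKO and 64.7 ± 2.83 TPM in control libraries, then Hand2 at 47.9 ± 2.50 TPM in Zip10 cKO and 54.7 ± 2.49 TPM in control libraries. The ranges of Hoxd10 and Hand2 overlapped in Zip10 cKO but not in control libraries. The bottom of the order was held by Tcf21, Hoxa9, Hoxd9, Hoxd11 and Cebpb, at means of 29.1 to 38.5 TPM in Zip10 cKO and 27.0 to 44.4 TPM in control libraries. Tcf21, the highest of these 5, lay below Hand2 with no overlap in both groups. Among the 5, each overlapped its neighbour in the Zip10 cKO group, and in the control group Cebpb, the lowest, was apart from Hoxd11 above it.

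Hoxa11, which mouse stroma needs for gland formation and decidua, was at 195, 221 and 257 CPM in Zip10 cKO libraries 1, 2 and 3, and at 278, 263 and 262 CPM in control libraries 1, 2 and 3. Every Zip10 cKO library lay below every control, though library 3 by little. The fold was 0.838 with an interval from 0.692 to 1.01 and the log2 fold change -0.26 ± 0.12 (SE; edgeR adjusted p = 0.747). It was -0.16 without Zip10 cKO library 1. In TPM the groups overlapped, with 163.61 in Zip10 cKO library 3 against 159.20 in control library 1. The antisense gene Hoxa11os shares exon sequence with Hoxa11 and gave 32.5, 62.1 and 99.8 CPM in Zip10 cKO libraries and 79.5, 97.5 and 90.2 CPM in controls, so its own spread was wide.

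Hoxa10, whose loss in mice leaves stroma poorly responsive to progesterone, was at 234, 284 and 308 CPM in Zip10 cKO libraries 1, 2 and 3, and at 322, 288 and 310 CPM in control libraries 1, 2 and 3. The groups overlapped. It had the smallest difference of the 10 genes, a fold of 0.898 with an interval from 0.737 to 1.09 and a log2 fold change of -0.16 ± 0.12 (SE; edgeR adjusted p = 0.787), which was -0.05 without Zip10 cKO library 1 and -0.24 without library 3. The difference of Hoxa10 minus Hoxa11 in log2 CPM was 0.26, 0.36 and 0.26 in Zip10 cKO libraries and 0.21, 0.13 and 0.24 in controls, all 3 Zip10 cKO libraries above all 3 controls (exact two-sided permutation p = 0.1, the smallest possible). The other gene of that cluster, Hoxa9, was at 39.0, 70.0 and 80.5 CPM in Zip10 cKO libraries 1, 2 and 3, and at 76.8, 79.3 and 87.5 CPM in control libraries 1, 2 and 3. Its low mean rests on Zip10 cKO library 1. The log2 fold change of Hoxa9 was -0.36 ± 0.24 (SE; edgeR adjusted p = 0.765), and it was -0.11 without that library and -0.58 without Zip10 cKO library 3.

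The 3 HoxD members were each lowest in Zip10 cKO library 1. Hoxd10 had the lowest fold of all 10 genes, 0.763 with an interval from 0.563 to 1.03, at 44.1, 78.7 and 67.6 CPM in Zip10 cKO libraries 1, 2 and 3 and 88.7, 83.2 and 77.6 CPM in control libraries 1, 2 and 3. Zip10 cKO library 2 lay above control library 3. Its log2 fold change was -0.39 ± 0.19 (SE; edgeR adjusted p = 0.747), and -0.19 without Zip10 cKO library 1. Hoxd9 was at 41.0, 68.8 and 52.7 CPM in Zip10 cKO libraries and 74.3, 67.8 and 60.2 CPM in controls, a log2 fold change of -0.32 ± 0.18 (SE; edgeR adjusted p = 0.756), or -0.15 without Zip10 cKO library 1 and -0.53 without library 2. Hoxd11 was at 31.8, 52.3 and 47.0 CPM in Zip10 cKO libraries and 50.1, 61.5 and 50.3 CPM in controls, a log2 fold change of -0.30 ± 0.18 (SE; edgeR adjusted p = 0.760), or -0.12 without that library, -0.46 without Zip10 cKO library 2 and -0.20 without control library 2. For each of these genes library 1 was the lowest of the Zip10 cKO group and library 2 the highest. Hoxd10 and Hoxd11 share exon sequence with the same-strand transcript Gm28309, and the counts of Hoxd11 were split between genes in all 6 libraries, while those of Hoxd10 were whole.

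The other Hox genes were read beside these. Of the 39 Hox genes, 25 were tested, and 20 of them were below 0. Among the 33 that are not members, 19 were tested, with 14 below and 5 above 0 and a median of -0.30 on the log2 scale. At an unadjusted p under 0.05 there were 6 of them, all lower, against 1.98% of all genes, and for 6 all Zip10 cKO libraries lay below all controls, against 5.78% of all genes, but none passed after adjustment in the edgeR test. All 8 tested HoxB genes were below 0, at -0.63 to -0.21 with a median of -0.42, and 5 of the 6 with a small unadjusted p were in that cluster. Hoxb8, a gene of the middle of the cluster, was at 20.4, 29.6 and 30.6 CPM in Zip10 cKO libraries and 37.6, 47.6 and 39.8 CPM in controls, a log2 fold change of -0.63 ± 0.17 (SE; edgeR adjusted p = 0.747). Hoxb7 stood at -0.58 ± 0.19, Hoxb4 at -0.50 ± 0.19 and Hoxb3 at -0.45 ± 0.19. Without Zip10 cKO library 1, 7 of the 8 HoxB genes were below 0 with a median of -0.26, and 2 of them had an unadjusted p under 0.05. Over the 19 non-member Hox genes 12 were then below and 7 above 0, the median was -0.12, and at an unadjusted p under 0.05 there were 2 lower and 1 higher. In the same fit 1.59% of all genes were lower at that p, and 463 of 17075 were higher. Leaving out control library 1, 2 or 3 left 2, 1 and 2 of the 19 lower at that p and none higher, beside 1.57%, 1.09% and 2.62% of all genes lower. Without Zip10 cKO library 2 or 3, 6 and 8 of the 19 were lower and none higher, beside 3.31% and 2.91% of all genes lower. The 4 tested HoxC genes had at most 3.36 CPM in any library and a median of 0.26. Paralogue group 13, of which Hoxa13 marks cervix and vagina, had few counts. Hoxa13 had 4, 0 and 34 counts in Zip10 cKO libraries 1, 2 and 3 and 1, 2 and 4 counts in control libraries 1, 2 and 3, and Hoxb13 and Hoxc13 had no counts.

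**Figure D2:**
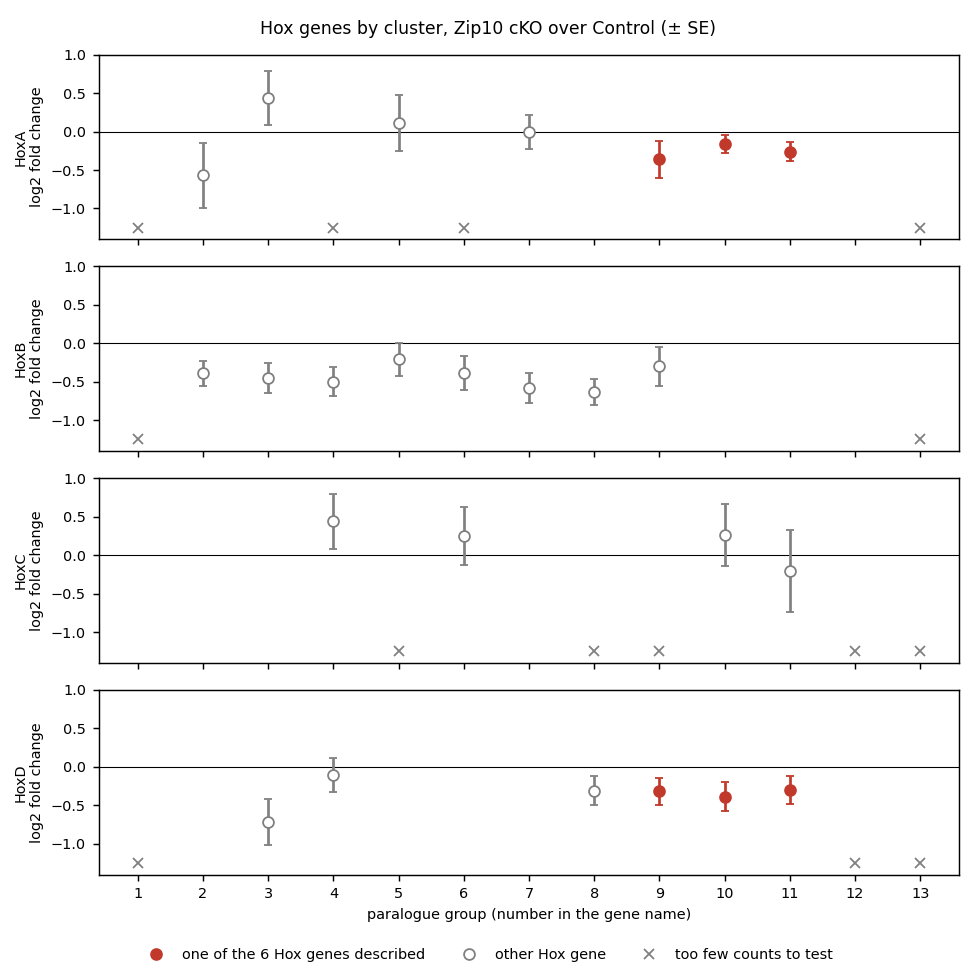
Log2 fold change of Zip10 cKO over control with SE (vertical axis) for the Hox genes of the 4 clusters, by paralogue group (horizontal axis); filled red points are the 6 Hox members, open points other Hox genes, and crosses genes with too few counts to test. All 8 tested HoxB genes and all 6 tested HoxD genes are below 0, and 3 of the 4 tested HoxC genes are above.

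Cebpb, the leucine zipper factor, was at 46.1, 28.2 and 29.1 CPM in Zip10 cKO libraries 1, 2 and 3, and at 31.6, 31.7 and 20.6 CPM in control libraries 1, 2 and 3. Zip10 cKO library 1 was the highest of the 6 and control library 3 the lowest, and the other 4 lay between 28.2 and 31.7 CPM. The fold was 1.23 with an interval from 0.846 to 1.80, and the log2 fold change 0.30 ± 0.24 (SE; edgeR adjusted p = 0.786). It was 0.03 without Zip10 cKO library 1 and 0.11 without control library 3. Its relatives and those of Nr2f2, all 7 tested, were centred on -0.03 (median log2 fold change), with none at an unadjusted p under 0.05; Ddit3, a stress-induced relative, had the smallest p and stood at -0.29 ± 0.23. Exons of Cebpb overlap those of the opposite-strand gene Tmem189.

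The members were next set against a list of stromal markers. Pdgfra, a growth factor receptor of stromal fibroblasts, was at 317, 270 and 298 CPM in Zip10 cKO libraries and 260, 277 and 285 CPM in controls, a log2 fold change of 0.11 ± 0.10 (SE). Pdgfrb, its relative, stood at 0.02 ± 0.14 and Vim, the mesenchymal filament protein vimentin, at -0.02 ± 0.12. The groups overlapped for these 3 genes.

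The markers furthest above 0 were genes of the extracellular matrix. Of the 13 stromal markers, 10 were above 0 and 3 below; the median was 0.43 on the log2 scale, and for 7 all Zip10 cKO libraries lay above all controls, where 6.93% of all genes did. At an unadjusted p under 0.05 there were 7, all higher, beside 4.48% of all genes higher at that p. None passed after adjustment in the edgeR test (adjusted p of at least 0.747). Lum, a proteoglycan of collagen fibrils, averaged 466 ± 49.0 CPM in Zip10 cKO and 332 ± 36.5 CPM in control libraries, and Postn, periostin, 634 ± 158 CPM in Zip10 cKO and 345 ± 94.6 CPM in control libraries (SD, n = 3 each). Col3a1 stood at 0.49 ± 0.14 and Fbln1, fibulin-1, at 0.50 ± 0.15 (log2 fold change ± SE). Mfap5, a microfibril gene, lay the other way, below every control at -0.19 ± 0.09. Without Zip10 cKO library 1 the median of the stromal list was 0.35 and 7 of its genes had an unadjusted p under 0.05, all higher. In that fit 463 of 17075 genes were higher at that p. Without control library 1 the median was 0.28 and 5 did, all higher, beside 408 of 17060 genes.

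**Figure D3:**
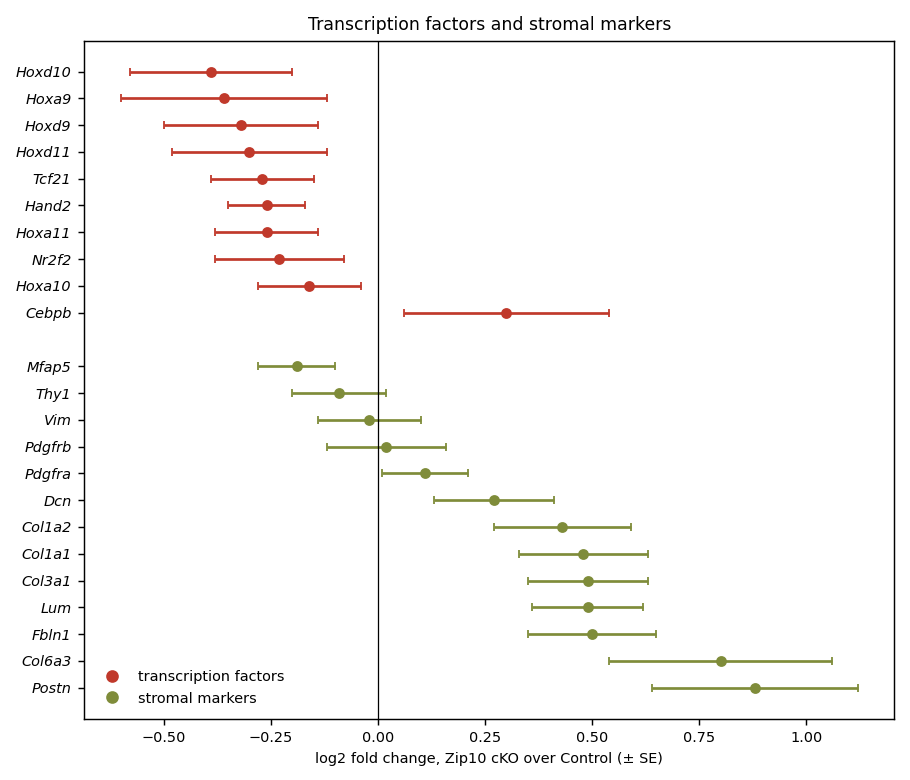
Log2 fold change of Zip10 cKO over control with SE (horizontal axis) for the 10 transcription factors (red) and the 13 stromal markers (green). The red points lie between -0.39 and -0.16 apart from Cebpb at 0.30, and the green points run from -0.19 for Mfap5 to 0.88 for Postn, with Vim, Pdgfrb and Pdgfra near 0.

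Relative to the mean of the 13 stromal markers in the same library, all 10 genes were lower in the Zip10 cKO group. The same held for 90.0% of all genes tested. The mean log2 CPM of the markers was 9.46, 9.34 and 9.24 in Zip10 cKO libraries 1, 2 and 3 and 8.84, 9.05 and 9.19 in control libraries 1, 2 and 3. Hand2 minus that mean was -3.27, -2.92 and -2.96 in Zip10 cKO and -2.28, -2.49 and -2.65 in control libraries, a difference of -0.58, with no overlap. Hoxa10 differed by -0.48, Hoxa11 by -0.58, Nr2f2 by -0.57, Tcf21 by -0.58, Hoxd10 by -0.75 and Cebpb by -0.03. All 3 Zip10 cKO libraries lay below all 3 controls for 8 genes, the exceptions being Hoxd9 and Cebpb, and for 34.6% of all genes tested. Exact two-sided permutation tests gave each of the 8 members p = 0.1, the smallest possible.

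The choice of marker set the size of this difference. Because the markers themselves were 0.32 higher in Zip10 cKO libraries, 90.0% of all genes tested were lower relative to them, with a median of -0.32, and 34.6% had all Zip10 cKO libraries below all controls. The median over the 10 members was -0.58 against the 13 markers, -0.48 without the collagen genes, -0.37 against Pdgfra alone and -0.25 against Vim alone. Against Pdgfra alone 3 members, and 7.84% of all genes, had every Zip10 cKO library below every control, and against Vim alone 1 member and 1.29% of all genes did. Without Zip10 cKO library 1, relative to the 13 markers, Hand2 differed by -0.47, Nr2f2 by -0.35, Hoxa9 by -0.37, Hoxa10 by -0.31 and Hoxd10 by -0.45.

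**Figure D4:**
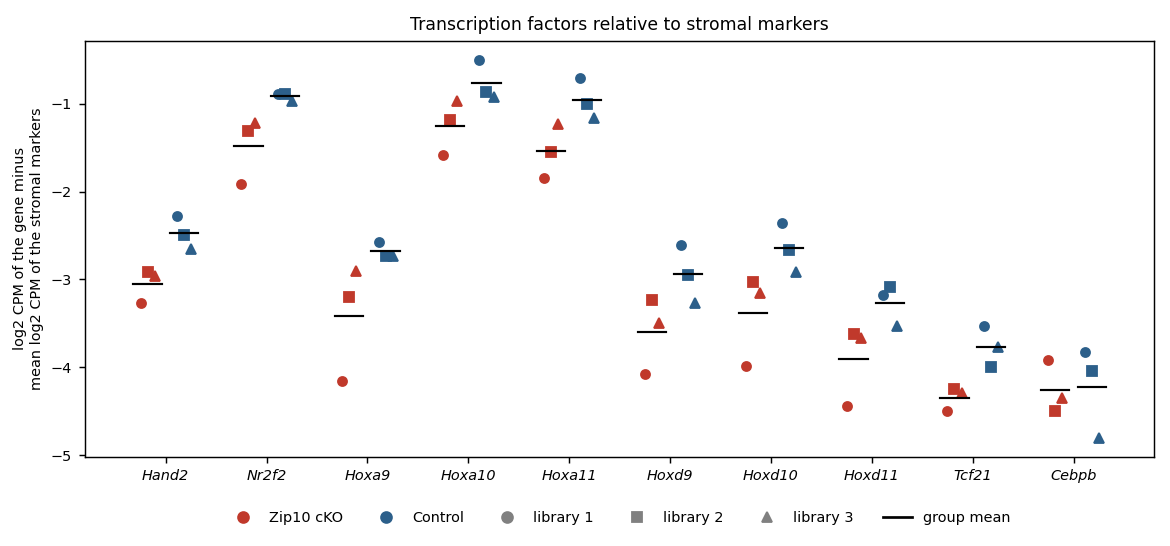
Log2 CPM of each transcription factor minus the mean log2 CPM of 13 stromal markers (vertical axis) in each Zip10 cKO (red, left) and control (blue, right) library, with group means as bars. The red points lie below the blue ones for 8 genes, and overlap them for Hoxd9 and Cebpb. On this measure 34.6% of all genes tested had every Zip10 cKO library below every control.

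Markers of other cell types also differed between libraries, and their part in the members' values was not tested. All 10 smooth muscle markers were above 0, with a median of 0.54 on the log2 scale, and their summed level was 11326 to 15638 CPM in Zip10 cKO and 6716 to 12016 CPM in control libraries. Myh11, the smooth muscle myosin, averaged 2363 ± 189 CPM in Zip10 cKO and 1301 ± 442 CPM in control libraries (SD, n = 3 each). All 8 macrophage markers were above 0 (median 0.57, summed 430 to 882 CPM in Zip10 cKO and 380 to 555 CPM in control libraries), as were 7 of 8 lymphocyte markers (median 0.69, summed 98.3 to 141 CPM in Zip10 cKO and 72.6 to 83.4 CPM in control libraries). Mrc1, a macrophage mannose receptor, stood at 0.81 ± 0.20 and Gzma, a granzyme of cytotoxic cells, at 0.76 ± 0.19. Of the 12 epithelial markers 10 were below 0 (median -0.27, summed 916 to 1489 CPM in Zip10 cKO and 1141 to 1589 CPM in control libraries), and so were 9 of the 10 endothelial markers (median -0.15, summed 984 to 1151 CPM in Zip10 cKO and 1113 to 1255 CPM in control libraries). Epcam stood at -0.33 ± 0.14, Krt7 at 0.44 ± 0.15 and Emcn at -0.36 ± 0.12. No marker of these 5 lists was at 0 in every library. Without control library 3 all 10 smooth muscle markers had an unadjusted p under 0.05 (median 0.86), beside 4.22% of all genes higher. With all libraries 2 of these markers did, beside 4.48% of all genes higher. The medians without Zip10 cKO library 1 were 0.40 for smooth muscle, 0.22 for macrophage, 0.45 for lymphocyte, -0.15 for epithelial and -0.07 for endothelial markers. The summed level of the stromal markers was 15944 to 19085 CPM in Zip10 cKO and 11290 to 15026 CPM in control libraries. Zip10 cKO library 1, where the members were lowest, was the library with the most stromal, smooth muscle, macrophage and lymphocyte marker RNA and the least epithelial and endothelial marker RNA. Of 8 ovary and oviduct markers 4 were tested (median 0.12, summed 45.9 to 64.8 CPM in Zip10 cKO and 40.4 to 53.0 CPM in control libraries), Cyp19a1 had no counts, and Star stood at 0.38 ± 0.15.

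**Figure D5:**
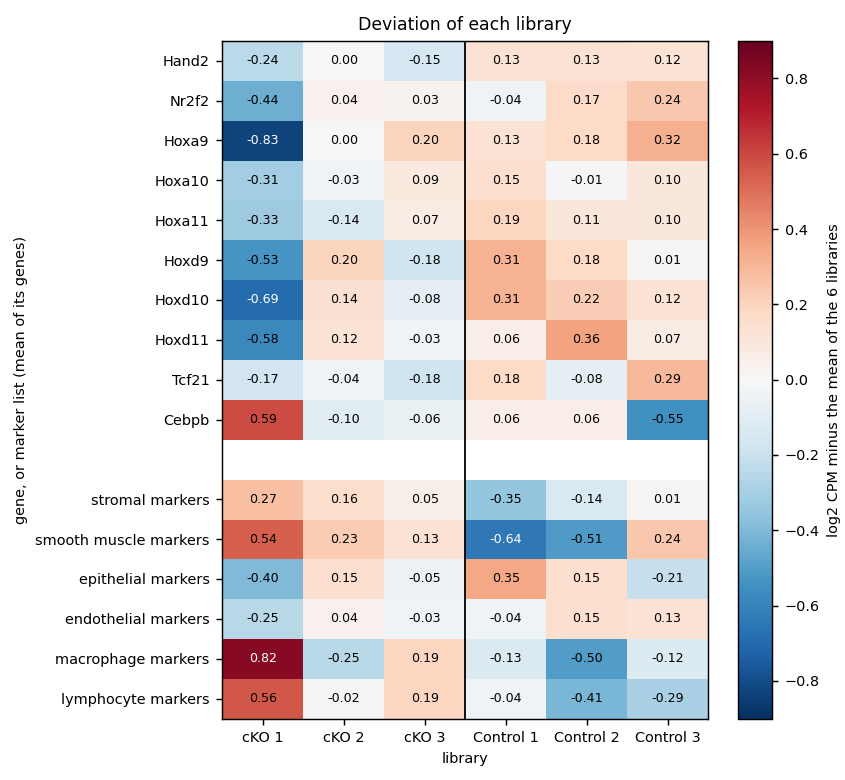
Log2 CPM minus the mean of the 6 libraries (colour scale and numbers) for the 10 transcription factors and, below the gap, for the mean of 6 marker lists, in the Zip10 cKO (left) and control (right) libraries. In Zip10 cKO library 1 the 9 factors other than Cebpb are at -0.17 to -0.83, while its stromal, smooth muscle, macrophage and lymphocyte markers are at 0.27 to 0.82.

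Genes around the members in the pathway were described from lists of known roles. Of 10 signals upstream of Nr2f2 and Hand2, 5 were above and 5 below 0 (median -0.04). At an unadjusted p under 0.05, 3 were higher and 1 lower, beside 4.48% of all genes higher and 1.98% lower. Ihh, the epithelial ligand, was at 38.1, 62.3 and 60.9 CPM in Zip10 cKO libraries and 82.1, 79.3 and 74.9 CPM in controls, every Zip10 cKO library below every control (log2 fold change -0.55 ± 0.18 SE; edgeR adjusted p = 0.747). Its co-receptors Gas1 and Boc stood at 0.45 ± 0.15 and 0.57 ± 0.20 and the effector Gli2 at 0.32 ± 0.10. Of 4 fibroblast growth factors that Hand2 holds down in mice, 1 was above 0 and 3 below, or 2 and 2 without Zip10 cKO library 1. The gene above 0, Fgf2, was at 30.4, 24.1 and 22.2 CPM in Zip10 cKO libraries and 12.7, 16.4 and 13.3 CPM in controls, with no overlap (log2 fold change 0.86 ± 0.16 SE; edgeR adjusted p = 0.735), while Fgf9 stood at -0.06 ± 0.30 and Fgf18 at -0.60 ± 0.48.

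Genes known to act below the members were mixed. Of 10 such genes, 8 were tested, 5 above and 3 below 0, with a median of 0.12, or -0.15 without Zip10 cKO library 1. Wnt4, a stromal ligand of decidua formation, stood at 0.36 ± 0.14 and Ptger4, a prostaglandin receptor whose stromal level depends on Hoxa10 in mice, at -0.47 ± 0.18. Bmp2, a decidual ligand, stood at 0.03 ± 0.25, and the decidual genes Prl8a2 and Igfbp1 had no counts in any library. The 9 Hox cofactors of the TALE homeodomain class had a median of -0.01, 4 above and 5 below 0 and none at an unadjusted p under 0.05. Among 20 other stromal transcription factors 10 were above and 10 below 0 (median -0.07). For 5 of them all Zip10 cKO libraries lay below all controls, against 5.78% of all genes tested. Ebf1, a mesenchymal factor, was the only one with an unadjusted p under 0.05, where 1.98% of all genes were lower at that p. It was at 58.6, 66.2 and 72.3 CPM in Zip10 cKO libraries and 84.0, 89.6 and 76.3 CPM in controls (log2 fold change -0.34 ± 0.11 SE, edgeR adjusted p = 0.747).

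Genes with the most similar profile were found by the root mean square difference of centred log2 CPM over the 6 libraries, among 12204 other genes with a mean of at least 5 CPM. For Hand2 they were Mboat1, Bcs1l and Cmc2, at 0.024 to 0.030. For Nr2f2 they were Tle1, Grap and Zfp358, at 0.037 to 0.051, and for Hoxa10 they were Ggact, Hspb11 and Mrpl24, at 0.038 to 0.042. Among the other members the nearest to Hoxa10 was Hoxa11, at 0.068 and rank 78, while the nearest to Hand2 was Hoxa11 at 0.118 and rank 1261 and the nearest to Nr2f2 was Hoxd11 at 0.130 and rank 366. The ranks are a description over 6 libraries only.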

How the data were processed

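RNA was measured in 6 mouse uterus libraries, 3 Zip10 cKO and 3 control, grouped by sample title. Oligo(dT) beads and random primers were used, per the labels' protocols. The tools were RSEM 1.3.3, STAR 2.7.10a, edgeR 3.38.4, R 4.2.1 and fastp 0.23.2 on GRCm39, per the submitters' processing notes; the strand setting and annotation release are not stated in the sources used. For each library the authors deposited an RSEM table, whose expected counts split reads between genes that share them and whose TPM are scaled per length, per the file headers. Counts were whole (within 0.005) for 6 members and split in all 6 libraries for 4, namely Hand2, Nr2f2, Hoxa11 and Hoxd11.

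Of 56748 gene IDs, 52073 (91.8%) matched a symbol in GENCODE M21, used for names and overlapping neighbours only. Ddit3 matched 2 IDs, and the one with counts was used. Expected counts were rounded, filtered by filterByExpr (minimum count 10, total 15), scaled by TMM and compared with the robust quasi-likelihood test of edgeR 4.0.16 (R 4.3.3), and p-values were adjusted by Benjamini-Hochberg over 16737 genes. SE came from the F statistic, and CPM are TMM-scaled. Log2 CPM outside that fit used a pseudocount of 0.5. Exact permutation tests were two-sided (scipy 1.17.1). Alternatives were DESeq2 1.42.0, limma-voom on counts and limma-trend on the deposited TPM (limma 3.58.1), edgeR's likelihood ratio test, other scaling and filters, removal of a length trend (loess, span 0.5), a replicate block and leaving out each library. The fits were tested on simulated data. No library was a copy of another: within groups the chi-square over genes was 18.0 or more for each degree of freedom. Promoter windows came from RefSeq on GRCm38.p6. Figures were drawn with matplotlib 3.10.9.

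The members and lists were chosen with earlier results of these data known. Genes named are the 10 members, Slc39a10, Pdgfra, Pdgfrb and Vim; in each other list up to 4 genes with the smallest unadjusted p under 0.05, or else the smallest; antisense partners with counts; and the 3 nearest profiles of Hand2, Nr2f2 and Hoxa10. Tcf12, Fgf9, Fgf18, Bmp2, Mfap5, the genes without counts and the Hox genes of paralogue group 13 were named after their values were seen. A gene that this rule names is not reported here.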

Additional observations from a re-analysis of the deposited data

How the results depend on the processing

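The 10 genes kept their direction and stayed above an adjusted p of 0.05 under each of 15 alternatives, including each library left out, and 0 members were called in any of them. The median log2 fold change of the 10 was -0.19 and -0.20 on TPM with pseudocounts of 1 and 0.1, and -0.33 to -0.14 with a library left out. Over all genes, 0 were called by edgeR's quasi-likelihood test (1081 at an unadjusted p under 0.05), against 37 by DESeq2, 30 by the likelihood ratio test, 15 with no filter on low counts and 0 to 2 with a library left out. The count of members with all Zip10 cKO libraries below all controls, 2 in CPM, was 1 in TPM (3.37% of all genes), 4 in CPM without TMM (7.13%) and 2 to 6 with a library left out (9.25% to 13.4%, since fewer libraries separate more easily); these settings were chosen after seeing the data, and the cause was not tested. Cebpb relative to the stromal markers changed sign, at 0.18 against Pdgfra, 0.30 against Vim, 0.07 without collagens and -0.32 to 0.16 with a library left out; the other 9 genes stayed lower in all 11 alternatives.

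With the replicate number as a block, 0 genes and 0 members were called, and the median of the members was -0.27. Same-numbered libraries correlated at 0.09, 0.25 and 0.19 in their deviations over genes, and the other combinations at -0.33 to 0.12. Zip10 cKO libraries 2 and 3 correlated best with the control of the same number, and library 1 with control library 3 (0.12). The labels give no batch, and the main test did not use the numbers as pairs.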

Other observations

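Antisense and host transcripts of the Hox and Hand2 loci were read apart from the comparisons above. Of 9 listed, 5 were tested and all 5 were below 0, with a median log2 fold change of -0.46, or -0.14 without Zip10 cKO library 1, when 4 of the 5 were below 0. Haglr, a transcript of the HoxD locus, was at 1.90, 3.17 and 3.13 CPM in Zip10 cKO libraries and 3.47, 4.35 and 3.78 CPM in controls. Every Zip10 cKO library lay below every control (log2 fold change -0.50 ± 0.27 SE, adjusted p = 0.756 in the edgeR test). Hoxa11os minus Hoxa11, on the log2 CPM scale, was -2.56, -1.82 and -1.36 in Zip10 cKO libraries and -1.80, -1.43 and -1.53 in controls, and Hand2os1 minus Hand2 was -0.26, -0.48 and 0.31 in Zip10 cKO libraries and -0.44, -0.20 and -0.19 in controls. Both differences spread more widely among the Zip10 cKO libraries, with SDs of 0.61 and 0.41, than among the controls, with SDs of 0.19 and 0.14 (n = 3 each), and exact two-sided permutation tests of the group difference gave p = 0.6 and p = 0.9.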
